A study of Mus musculus with 4 samples.

Results

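Toll-like receptor and NF-κB signaling genes were examined in leukemic stem cells (LSCs) with and without CD37. The list held 40 genes, from the receptors down to the NF-κB subunits, their inhibitors and the cytokines and TNF receptors around them. They were chosen by name, with earlier results of these data known. Of the 40 genes, 39 were among the 17104 genes measured and all 39 passed the filter on low values. *Myd88*, the adaptor shared by most Toll-like receptors, is not analysed here. LSCs were YFP+ c-kit+ bone marrow cells from mice with acute myeloid leukemia (AML) driven by the fusion oncogene MLL-AF9, sorted 6 weeks after secondary transplantation, with 2 CD37 fl/fl and 2 CD37 -/- replicates. Both groups were male, of strain C57, and carried the floxed *Cd37* alleles, a tamoxifen-inducible Cre (Rosa26-CreERT2) and the MLL-AF9-YFP retrovirus. CD37 -/- cells had been exposed to tamoxifen after the primary transplantation and CD37 fl/fl cells, which the sample titles call CD37 WT, to corn oil, so that tamoxifen exposure and genotype cannot be told apart. The study's methods give the age at which wild-type C57 mice were purchased and that of floxed mice injected with tamoxifen, but not that of the leukemic mice at the sort. It is also not stated whether the replicates were separate mice, so p-values measure only the spread between these samples, which may be technical.

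Toll-like receptors recognise microbial lipids, proteins and nucleic acids at the cell surface or in endosomes. Through adaptors they gather IRAK kinases and TRAF ubiquitin ligases, which activate the kinase TAK1 and then the IKK complex. IKK marks the inhibitory IκB proteins for degradation, and the NF-κB dimers they hold in the cytoplasm enter the nucleus. NF-κB drives inflammatory cytokines and also the genes for its own inhibitors, IκBα and A20, which close a negative feedback loop. In the bone marrow the pathway is best known from monocytes, macrophages and neutrophils, and it is also active in hematopoietic and leukemic progenitors.

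Values were FPKM (fragments per kilobase of gene, scaled to sequencing depth). The kilobases were those of the whole gene, introns included, so genes with long introns have low values. The libraries held between 15327357 and 22627491 reads, as recovered from the deposited values. *Cd37* (ENSMUSG00000030798), the targeted gene, had 56.6 and 46.8 FPKM in CD37 fl/fl replicates 1 and 2 and 23.2 and 22.9 FPKM in CD37 -/- replicates 1 and 2. Its level was therefore lower in both CD37 -/- libraries but not at 0, and the exons its reads came from were not analysed here. Of 8 progenitor markers, *Hoxa9*, a gene that MLL fusions keep on, was between 38.8 and 47.2 FPKM in the 4 libraries, while *Kit* was between 0.170 and 0.434 FPKM. At an unadjusted p under 0.05, 1 of the 6 progenitor markers tested was higher in CD37 -/- LSCs and 1 was lower. These were *Hoxa10*, with 3.79 and 4.30 FPKM in CD37 fl/fl and 8.01 and 10.4 FPKM in CD37 -/- replicates 1 and 2 (unadjusted p of 0.0045), and *Mecom*, with 0.215 and 0.196 FPKM and 0.0356 and 0.0810 FPKM (0.026). RNA of other blood cell markers was present and uneven. Summed over 13 neutrophil markers the level was 20593 and 5975 FPKM in CD37 fl/fl replicates 1 and 2 and 20622 and 12330 FPKM in CD37 -/- replicates 1 and 2. Of this, *S100a8* had 11446 and 2264 FPKM and 11952 and 5552 FPKM. The list also holds *Elane*, *Mpo* and *Prtn3*, granule genes of early myeloid cells, so the sum is not of mature cells alone. *Elane* was even, between 1750 and 1884 FPKM. Without overlap, 5 of the 13 were higher in CD37 -/- LSCs and 2 were lower, *Mpo* and *Prtn3*. *Mpo* had 80.3 and 51.6 FPKM and 34.4 and 20.8 FPKM (unadjusted p of 0.017 in limma). Summed over the 7 erythroid markers measured the level was 60.9 and 5.17 FPKM in CD37 fl/fl and 576 and 143 FPKM in CD37 -/- replicates 1 and 2. All 7 were higher in CD37 -/- LSCs without overlap. The 5 that were tested all had an unadjusted p under 0.05 in limma, with a median log2 fold change of 4.18. Fewer cells of a type and less RNA per cell cannot be told apart in such bulk samples.

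Tested with limma and adjusted by the Benjamini-Hochberg method over 11774 genes, 0 of the 39 members and 0% of all genes passed an adjusted p of 0.05 between the genotypes. The smallest adjusted p was 0.107 over all genes and 0.130 among the members. At an unadjusted p under 0.05, 2606 genes were called, and 7 members were higher and 1 was lower in CD37 -/- LSCs. The higher members were *Tnfaip3*, *Nfkbia*, *Rel*, *Chuk*, *Irak1*, *Map3k7* and *Tnf*, and the lower member was *Pycard*. The 7 higher members were 17.9% of the list, where 16.5% of all tested genes were higher, and the 1 lower member was 2.56%, where 5.61% of all tested genes were lower. The values of both genotypes did not overlap for 18 members that were higher (46.2%, against 42.2% of all tested genes) and 3 that were lower (7.69%, against 18.6%). The share of members that were higher was thus near that of all genes. The median log2 fold change of the members was 0.38, where the median of all tested genes was 0.23, and 26 of 39 members lay above the latter. This order depended on single libraries. It turned to 0.17 against 0.26 without CD37 fl/fl replicate 2 and to 0.14 against 0.18 without CD37 -/- replicate 2. The medians lay further apart without CD37 fl/fl replicate 1 (0.48 against 0.18) and without CD37 -/- replicate 1 (0.61 against 0.26).

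The split of calls depended on how libraries were scaled. Of all genes called, 74.7% were higher in CD37 -/- LSCs in the deposited FPKM, 47.5% after quantile normalization, 43.9% after division by the upper quartile and 93.3% after rescaling to equal sums (TPM). The median of all tested genes moved with it from 0.23 to -0.03, -0.0035 and 0.55 on the log2 scale. Of the 39 members, 4 were then higher and 2 lower after quantile normalization, where 9.13% and 10.1% of all tested genes were. With the upper quartile 3 were higher and 3 lower, against 9.53% and 12.2% of all tested genes. As TPM 10 were higher and 0 lower, against 28.8% and 2.07% of all tested genes. The calls of *Irak1*, *Chuk* and *Map3k7* were lost after quantile normalization and with the upper quartile, that of *Tnf* with the upper quartile and that of *Pycard* as TPM. Leaving out 1 library also changed the counts. Without CD37 -/- replicate 2, 2 members were higher and 1 was lower, and without CD37 fl/fl replicate 2, 4 were higher and 1 was lower. Without CD37 -/- replicate 1, 6 members were higher and 0 were lower.

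**Figure D1:**
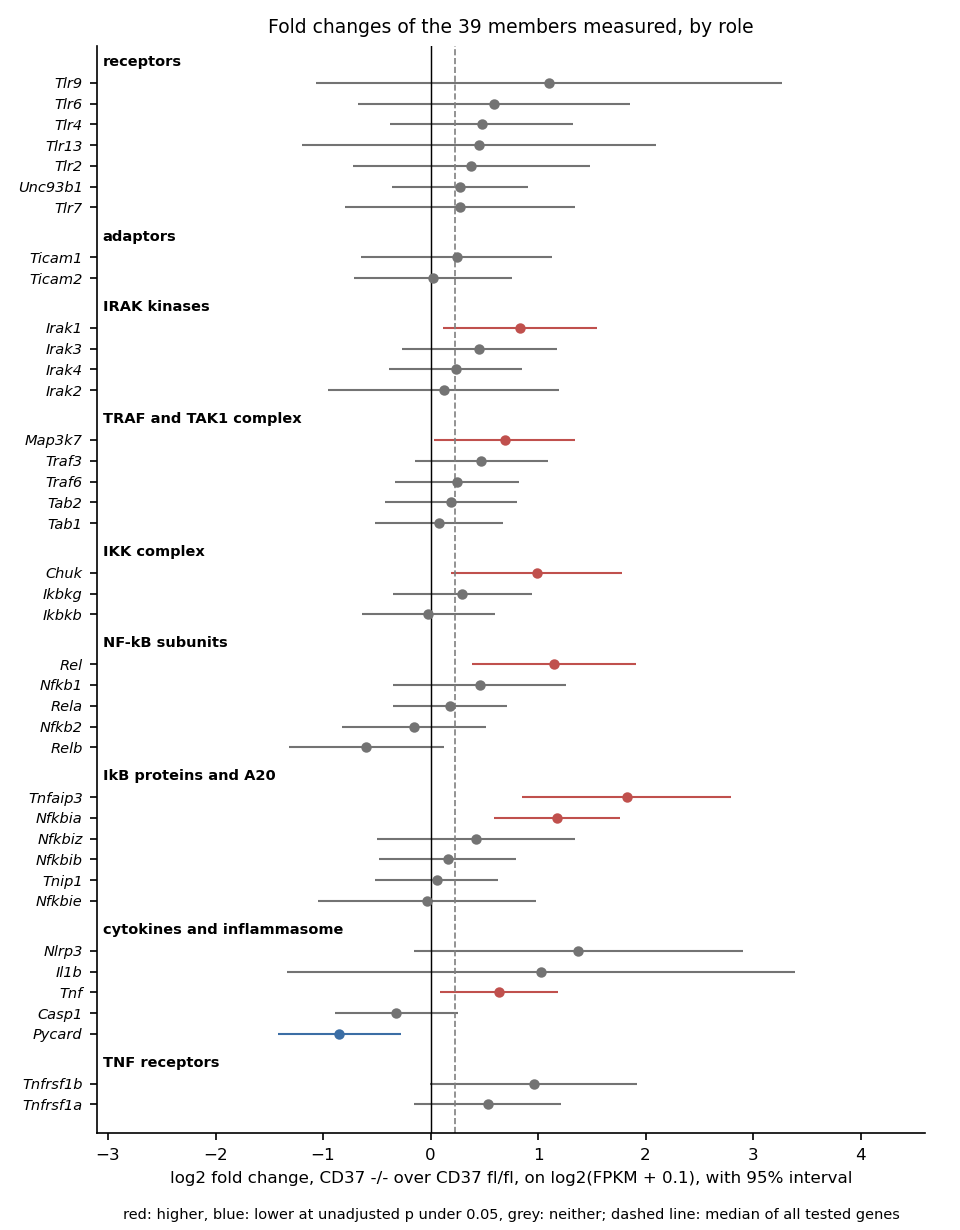
Fold changes of the 39 members measured. Each point is the log2 fold change of CD37 -/- over CD37 fl/fl on log2(FPKM + 0.1) with its 95% confidence interval, grouped by role, and the dashed line is the median of all tested genes at 0.23. The 7 red points and the 1 blue point passed an unadjusted p of 0.05, and the intervals of the other 31 members include 0.

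The IκB proteins and A20 held the 2 calls that were kept under all 16 alternative settings. *Tnfaip3*, which encodes the ubiquitin-editing enzyme A20, a brake on signaling from Toll-like and TNF receptors, had 0.964 and 0.638 FPKM in CD37 fl/fl and 2.24 and 4.11 FPKM in CD37 -/- replicates 1 and 2. Both CD37 -/- libraries were above both CD37 fl/fl libraries, and replicate 2 was the higher of the pair. On log2(FPKM + 0.1) the difference was 1.82 (standard error 0.38), with an unadjusted p of 0.0046 and an adjusted p of 0.132 in limma. *Nfkbia*, which encodes IκBα, the main cytoplasmic inhibitor of NF-κB, had 26.2 and 21.1 FPKM in CD37 fl/fl (23.7 ± 3.59, SD, n = 2) and 53.7 and 53.0 FPKM in CD37 -/- LSCs (53.3 ± 0.505, SD, n = 2). The 2 CD37 -/- libraries were nearly equal and far above the control libraries. The log2 fold change of 1.18 ± 0.23 (standard error) had an unadjusted p of 0.0034 and an adjusted p of 0.130 in limma. Over the alternatives and relative to the median of all genes, the log2 fold change ranged from 1.07 to 1.99 for *Tnfaip3* and from 0.76 to 1.34 for *Nfkbia*.

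No call was made for the other 4 genes of this role. *Nfkbib* (IκBβ) had a log2 fold change of 0.16, *Nfkbie* (IκBε) of -0.03, *Nfkbiz*, an atypical nuclear IκB protein, of 0.42, and *Tnip1*, a partner of A20, of 0.06. *Tnip1* was the most even of them, with 1.65 and 1.82 FPKM in CD37 fl/fl and 1.80 and 1.81 FPKM in CD37 -/- replicates 1 and 2. Signs of small differences depended on the scaling: *Nfkbib* and *Tnip1* turned lower after quantile normalization or with the upper quartile, and *Nfkbie* turned higher as TPM.

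NF-κB binds the κB consensus, a motif of 10 bases, and the promoters of the genes it feeds back on carry it. The motif was searched on both strands in RefSeq promoter windows (GRCm38.p6) of 300 bases, from 250 bases before a transcription start to 50 after, and 8.46% of all 32851 windows held a match. A window was given for 30 members, of which 11 held a match in at least 1 window, where 9.55% of 27025 genes did. Of the 7 higher members 5 held a match (*Nfkbia*, *Tnfaip3*, *Rel*, *Irak1* and *Map3k7*), and *Chuk* and *Tnf* held none in these windows. Of the 22 members with a window and no call, 6 held a match (*Tlr2*, *Traf3*, *Nfkb2*, *Nfkbie*, *Tnip1* and *Nlrp3*), and *Pycard* held none. These are matches of letters, and binding was not measured. The sequences below are those of the 3 higher members with the largest log2 fold changes, of *Map3k7*, whose match has the same letters as that of *Nfkbia*, and of *Tnip1*, which holds a match but was even across the libraries. Each runs 5′ to 3′ on the strand of the gene and lies before its transcription start, with the matches in capitals. The *Nfkbia* stretch is chr12:55492649-55492778 (minus strand), *Tnfaip3* is chr10:19015412-19015541 (minus strand), *Rel* is chr11:23770971-23771100 (minus strand), *Map3k7* is chr4:31963990-31964049 (plus strand) and *Tnip1* is chr11:54962963-54963022 (minus strand).
Nfkbia: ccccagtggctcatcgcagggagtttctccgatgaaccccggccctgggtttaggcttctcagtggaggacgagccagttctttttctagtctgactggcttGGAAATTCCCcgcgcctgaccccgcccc
Tnfaip3: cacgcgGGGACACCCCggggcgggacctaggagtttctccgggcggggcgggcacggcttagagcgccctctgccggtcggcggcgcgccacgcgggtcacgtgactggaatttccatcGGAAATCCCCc
Rel: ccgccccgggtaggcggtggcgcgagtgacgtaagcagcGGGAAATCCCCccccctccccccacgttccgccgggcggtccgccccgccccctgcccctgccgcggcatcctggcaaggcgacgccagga
Map3k7: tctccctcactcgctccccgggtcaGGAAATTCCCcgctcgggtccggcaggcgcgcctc
Tnip1: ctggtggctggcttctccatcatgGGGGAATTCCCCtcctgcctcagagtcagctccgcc
The matches in the *Tnfaip3* window began 125 and 12 bases before its start, and those of *Nfkbia* and *Rel* 29 and 92 bases before theirs. In *Rel* and *Tnip1* the capitals run over 11 and 12 bases, since matches at neighbouring positions overlap there.

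Of the 5 NF-κB subunits, 1 was called. *Rel* (chr11:23736847-23770970, minus strand), which encodes c-Rel, had 0.226 and 0.274 FPKM in CD37 fl/fl and 0.557 and 0.809 FPKM in CD37 -/- replicates 1 and 2. Its 34124-base gene gives low FPKM values, which rested on 118 to 625 reads. Both CD37 -/- libraries were above the control libraries, with a log2 fold change of 1.15 (standard error 0.30), an unadjusted p of 0.011 and an adjusted p of 0.159 in limma. Without CD37 -/- replicate 2 the log2 fold change was 0.91 with an unadjusted p of 0.062. *Rela*, which encodes the transactivating subunit p65 and was the most abundant subunit per exon length, had 9.44 and 9.22 FPKM in CD37 fl/fl and 10.2 and 11.1 FPKM in CD37 -/- replicates 1 and 2. Its log2 fold change was 0.18 (95% confidence interval -0.35 to 0.71), and it turned lower with the upper quartile.

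*Relb*, a subunit of the non-canonical branch, was on the opposite side. It had 0.997 and 0.706 FPKM in CD37 fl/fl and 0.488 and 0.556 FPKM in CD37 -/- replicates 1 and 2, with no overlap, a log2 fold change of -0.60 (standard error 0.28) and an unadjusted p of 0.086 in limma. After quantile normalization the log2 fold change was -0.97 with an unadjusted p of 0.018, and with the upper quartile -0.83 with 0.032. As TPM the log2 fold change shrank to -0.27 with an unadjusted p of 0.50, and without CD37 fl/fl replicate 1 it was -0.38. The precursor genes *Nfkb1* and *Nfkb2* overlapped between the genotypes, with log2 fold changes of 0.46 and -0.15.

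Among the kinases that carry the signal to IκB, 1 gene per group was called. *Irak1* (chrX:74013914-74023918, minus strand), the kinase recruited to the receptor complex and the most abundant IRAK gene per exon length, had 9.01 and 8.29 FPKM in CD37 fl/fl and 12.5 and 19.2 FPKM in CD37 -/- replicates 1 and 2. Its log2 fold change of 0.83 ± 0.28 (standard error) had an unadjusted p of 0.030 and an adjusted p of 0.193 in limma. The call was lost without CD37 fl/fl replicate 1 (0.89, unadjusted p of 0.075), CD37 fl/fl replicate 2 (0.77, 0.107) or CD37 -/- replicate 2 (0.53, 0.124). *Irak4*, the kinase upstream of it, *Irak2*, and *Irak3*, an IRAK that restrains signaling, were not called, with log2 fold changes of 0.24, 0.12 and 0.45. The sign of *Irak2* and *Irak4* turned after quantile normalization or with the upper quartile.

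*Map3k7* (chr4:31964097-32023467, plus strand), which encodes TAK1, had 0.479 and 0.490 FPKM in CD37 fl/fl and 0.759 and 0.935 FPKM in CD37 -/- replicates 1 and 2. The control libraries were nearly equal and below both CD37 -/- libraries. The log2 fold change of 0.69 ± 0.26 (standard error) had an unadjusted p of 0.042 and an adjusted p of 0.214 in limma. The call was lost without any 1 of the 4 libraries, where the log2 fold change was 0.68 without CD37 fl/fl replicate 1, 0.70 without CD37 fl/fl replicate 2, 0.82 without CD37 -/- replicate 1 and 0.55 without CD37 -/- replicate 2, with unadjusted p-values between 0.087 and 0.189. The TAK1-binding genes *Tab1* and *Tab2* had log2 fold changes of 0.08 and 0.19. *Traf6*, the ubiquitin ligase upstream of TAK1, had 2.46 and 2.08 FPKM in CD37 fl/fl and 2.64 and 2.77 FPKM in CD37 -/- replicates 1 and 2, and *Traf3*, which restrains the non-canonical branch, had a log2 fold change of 0.47 with no overlap and an unadjusted p of 0.109. *Tab1*, *Tab2* and *Traf6* turned lower after quantile normalization or with the upper quartile.

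*Chuk* (chr19:44073335-44107480, minus strand), which encodes IKKα, had 0.581 and 0.963 FPKM in CD37 fl/fl and 1.45 and 1.73 FPKM in CD37 -/- replicates 1 and 2. Its log2 fold change of 0.99 ± 0.31 (standard error) had an unadjusted p of 0.024 and an adjusted p of 0.183 in limma. The call was lost without CD37 fl/fl replicate 1 (0.66, unadjusted p of 0.088), CD37 -/- replicate 1 (1.11, 0.088) or CD37 -/- replicate 2 (0.86, 0.147). *Ikbkb*, which encodes IKKβ, the kinase of the canonical branch, had 2.87 and 2.35 FPKM in CD37 fl/fl and 2.34 and 2.80 FPKM in CD37 -/- replicates 1 and 2. The genotypes overlapped, and the log2 fold change was -0.02 (95% confidence interval -0.64 to 0.60). *Ikbkg*, the scaffold NEMO, had a log2 fold change of 0.29 with no overlap and an unadjusted p of 0.296.

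**Figure D2:**
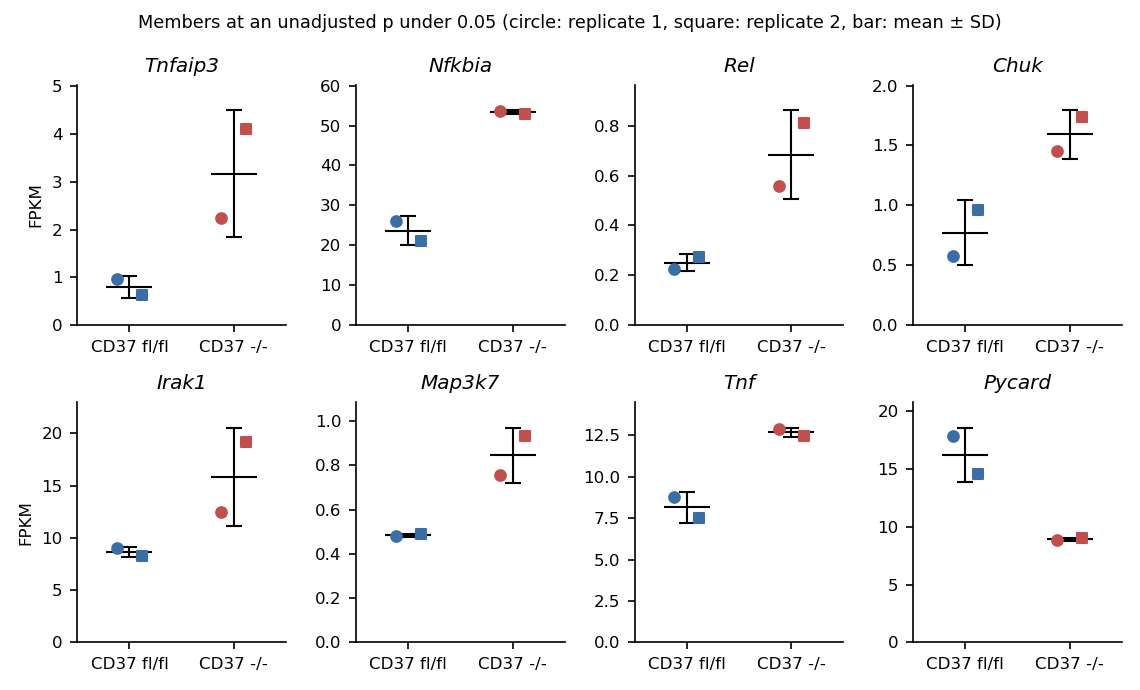
FPKM of the 8 members that passed an unadjusted p of 0.05 in each library. Circles are replicate 1, squares replicate 2, and bars the mean ± SD of the 2 libraries of a genotype. In each panel the 2 CD37 -/- libraries lie on 1 side of the 2 CD37 fl/fl libraries, above them for 7 genes and below them for *Pycard*.

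The cytokine and inflammasome genes went in both directions. *Tnf* (chr17:35199381-35202007, minus strand), a cytokine made on NF-κB activation that in turn activates it, had 8.79 and 7.49 FPKM in CD37 fl/fl and 12.9 and 12.5 FPKM in CD37 -/- replicates 1 and 2. Its log2 fold change of 0.64 ± 0.22 (standard error) had an unadjusted p of 0.031 and an adjusted p of 0.194 in limma. The call was lost without CD37 fl/fl replicate 2 (0.52, unadjusted p of 0.104), CD37 -/- replicate 1 (0.61, 0.101) or CD37 -/- replicate 2 (0.66, 0.087). With the replicate number as a block its unadjusted p was 0.056, and that of *Map3k7* was 0.055. The latter was 0.066 when all genes above 0 were tested. The call of *Tnf* was also lost with the upper quartile (log2 fold change of 0.37) and in limma-voom on the recovered reads, where its unadjusted p was 0.056 without and 0.060 with the block.

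*Pycard* (chr7:127989708-127993867, minus strand), which encodes the inflammasome adaptor ASC, had 17.9 and 14.5 FPKM in CD37 fl/fl and 8.82 and 9.01 FPKM in CD37 -/- replicates 1 and 2. Both CD37 -/- libraries were far below both control libraries, with a log2 fold change of -0.85 (standard error 0.22), an unadjusted p of 0.012 and an adjusted p of 0.161 in limma. Without CD37 -/- replicate 1 the log2 fold change was -0.83 with an unadjusted p of 0.052, and as TPM it was -0.47 with 0.116. *Casp1*, the protease that ASC engages, had 5.01 and 4.24 FPKM in CD37 fl/fl and 3.49 and 3.86 FPKM in CD37 -/- replicates 1 and 2, with a log2 fold change of -0.32 and an unadjusted p of 0.213, and it turned to 0.05 as TPM and reached an unadjusted p of 0.048 with the upper quartile.

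*Nlrp3*, the sensor of the same inflammasome, had 0.347 and 0.407 FPKM in CD37 fl/fl and 0.571 and 2.17 FPKM in CD37 -/- replicates 1 and 2. The log2 fold change of 1.38 (standard error 0.60, unadjusted p of 0.069) rested on CD37 -/- replicate 2, and was 0.49 without it and 2.26 (unadjusted p of 0.0060) without CD37 -/- replicate 1. Its unadjusted p was 0.039 with the replicate number as a block, 0.036 as TPM, and in limma-voom 0.041 without and 0.0035 with the block. After quantile normalization it was 0.153 and with the upper quartile 0.113. *Il1b*, the cytokine that the inflammasome matures, differed more within than between the genotypes, with 12.7 and 1.90 FPKM in CD37 fl/fl and 6.78 and 15.3 FPKM in CD37 -/- replicates 1 and 2. Its log2 fold change was 1.03 (standard error 0.93), 2.37 (unadjusted p of 0.016) without CD37 fl/fl replicate 1 and -0.31 without CD37 fl/fl replicate 2.

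Both TNF receptors lay higher in CD37 -/- libraries without a call. *Tnfrsf1a*, the widely expressed receptor, had 11.6 and 7.91 FPKM in CD37 fl/fl and 13.2 and 14.6 FPKM in CD37 -/- replicates 1 and 2, with a log2 fold change of 0.53 and an unadjusted p of 0.103 in limma. *Tnfrsf1b*, which is largely confined to blood and endothelial cells, had 1.77 and 0.974 FPKM in CD37 fl/fl and 2.15 and 3.27 FPKM in CD37 -/- replicates 1 and 2, with a log2 fold change of 0.96 (95% confidence interval -0.0011 to 1.92). Leaving out CD37 fl/fl replicate 1 raised the log2 fold changes to 0.81 for *Tnfrsf1a* and 1.36 for *Tnfrsf1b*. They fell to 0.26 and 0.56 when CD37 fl/fl replicate 2 was left out instead. As TPM the unadjusted p was 0.020 for *Tnfrsf1a* and 0.019 for *Tnfrsf1b*. It was 0.139 and 0.144 after quantile normalization, and 0.389 and 0.131 with the upper quartile. For *Tnfrsf1b* alone, the unadjusted p was 0.0502 in the main test and 0.079 with the replicate number as a block. It was between 0.019 and 0.048 with a minimum mean FPKM of 1, with robust eBayes and in limma-voom.

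None of the 7 receptor genes and neither of the 2 adaptors measured was called. *Unc93b1*, the chaperone that brings Toll-like receptors to endosomes, was the most abundant of all members per exon length, with 16.8 and 14.1 FPKM in CD37 fl/fl and 16.4 and 21.3 FPKM in CD37 -/- replicates 1 and 2. The log2 fold changes of the receptors ran from 0.27 for *Tlr7*, a sensor of single-stranded RNA, to 1.10 for *Tlr9*, a sensor of unmethylated DNA. Their unadjusted p-values ran from 0.212 to 0.542, and the genotypes overlapped for 6 of the 7. The 1 gene without overlap was *Tlr4*, the receptor for lipopolysaccharide, with 0.403 and 0.228 FPKM in CD37 fl/fl and 0.407 and 0.528 FPKM in CD37 -/- replicates 1 and 2. Of the adaptors, *Ticam1* (TRIF) had 3.49 and 2.02 FPKM in CD37 fl/fl and 2.68 and 3.74 FPKM in CD37 -/- replicates 1 and 2, and *Ticam2* (TRAM) had a log2 fold change of 0.02. The sign turned after quantile normalization for *Tlr7* and *Ticam2* and with the upper quartile for both adaptors.

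The receptors differed between libraries of 1 genotype. *Tlr2*, the receptor for bacterial lipoproteins, had 10.2 and 5.30 FPKM in CD37 fl/fl and 7.21 and 12.8 FPKM in CD37 -/- replicates 1 and 2. *Tlr6*, its partner, had 1.21 and 0.422 FPKM in CD37 fl/fl and 0.95 and 1.37 FPKM in CD37 -/- replicates 1 and 2. *Tlr13*, which senses bacterial ribosomal RNA, had 1.85 and 0.624 FPKM in CD37 fl/fl and 0.919 and 2.47 FPKM in CD37 -/- replicates 1 and 2. Each was higher in CD37 fl/fl replicate 1 than in replicate 2, and higher in CD37 -/- replicate 2 than in replicate 1. *Tlr9* had 0.0913 and 0.0269 FPKM in CD37 fl/fl and 0.0395 and 0.701 FPKM in CD37 -/- replicates 1 and 2. These values rested on 6, 2, 3 and 68 reads, so that its fold change came from CD37 -/- replicate 2, and without that library it was -0.16 on the log2 scale. It was 2.36 with an unadjusted p of 0.0069 without CD37 -/- replicate 1. Likewise *Tlr6* reached an unadjusted p of 0.027 without CD37 fl/fl replicate 1 (log2 fold change of 1.25) and turned to -0.07 without CD37 fl/fl replicate 2. *Tlr2* and *Tlr13* turned to log2 fold changes of -0.082 and -0.26 without CD37 fl/fl replicate 2, and to -0.027 and -0.22 without CD37 -/- replicate 2.

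The same order of libraries held for 25 of the 39 members (64.1%), where it held for 23.0% of all tested genes. It was looked for after the values of the receptors were seen. By role it held for 7 of 7 receptors, 2 of 2 adaptors, 2 of 2 TNF receptors, 3 of 4 IRAK genes, 3 of 6 IκB proteins and A20, 3 of 5 cytokine and inflammasome genes, 2 of 5 genes of the TRAF and TAK1 group, 2 of 5 NF-κB subunits and 1 of 3 IKK genes. It therefore took in most genes at the membrane end of the pathway and fewer at its core. Of the 7 higher members, *Tnfaip3* and *Irak1* followed it, and *Rel*, *Chuk*, *Map3k7*, *Nfkbia* and *Tnf* did not.

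Markers of monocytes and macrophages moved with this order. It held for 12 of their 13 genes, with *Vcam1* the exception, and their summed level was 339 and 236 FPKM in CD37 fl/fl and 257 and 325 FPKM in CD37 -/- replicates 1 and 2. The 12 include *Cx3cr1* and *Ly6c2*, which differed by only 0.0036 and 0.036 between the CD37 -/- libraries on log2(FPKM + 0.1). *Csf1r*, the receptor for macrophage colony-stimulating factor, had 3.79 and 1.16 FPKM in CD37 fl/fl and 1.16 and 4.38 FPKM in CD37 -/- replicates 1 and 2, and the chemokine receptor *Ccr2* had 6.24 and 3.11 FPKM and 2.67 and 8.10 FPKM. Of the 13, 0 were at 0 in all 4 libraries. Of 13 neutrophil markers 4 followed the order (*Ly6g*, *Mmp8*, *Mmp9* and *Cxcr2*), where 23.0% of all tested genes did. *Ly6g* had 19.9 and 2.66 FPKM in CD37 fl/fl and 11.5 and 20.2 FPKM in CD37 -/- replicates 1 and 2. All the others were lower in CD37 -/- replicate 2 than in replicate 1, among them *S100a8* (11952 and 5552 FPKM in CD37 -/- replicates 1 and 2). Of the 10 dendritic cell markers measured 6 followed the order, and only 5 of the 10 passed the filter on low values. Summed over the 10 the level was 238 and 31.6 FPKM in CD37 fl/fl and 11.4 and 43.7 FPKM in CD37 -/- replicates 1 and 2. *Cd74*, *H2-Aa* and *H2-Ab1* had the largest differences in both genotypes (3.04, 2.76 and 2.50 in CD37 fl/fl on log2(FPKM + 0.1)). *Flt3*, *Zbtb46*, *Xcr1* and *Clec9a* did not follow the order. The part of these cells in the levels of the receptors was not tested.

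**Figure D3:**
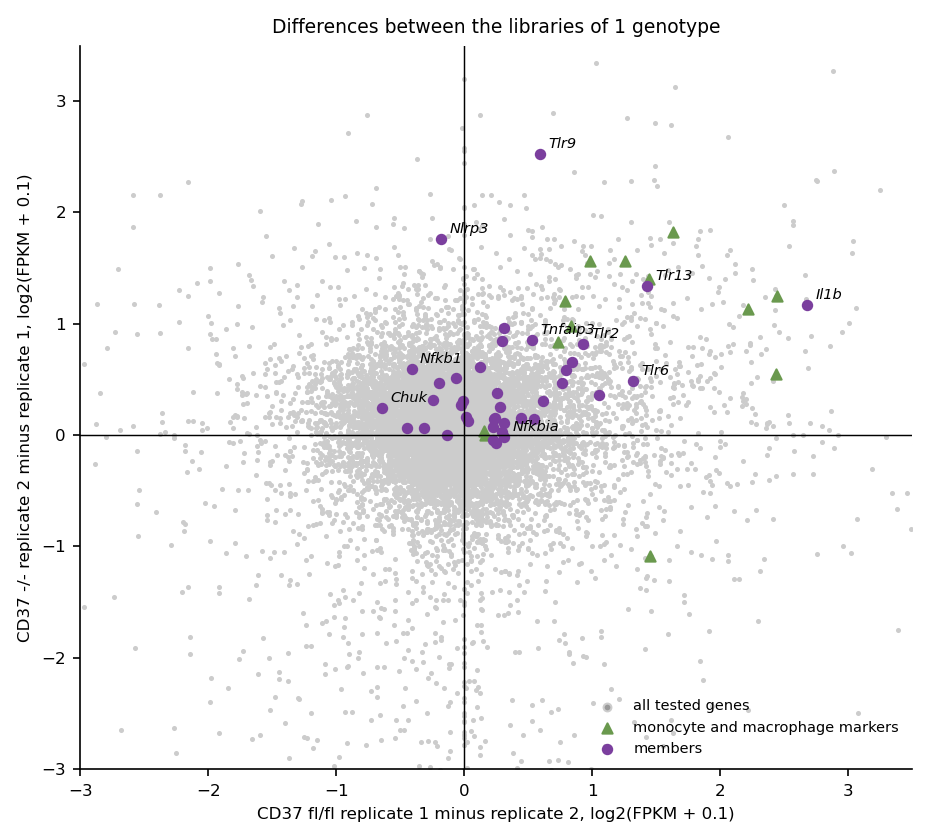
Differences between libraries of 1 genotype on log2(FPKM + 0.1), as CD37 fl/fl replicate 1 minus replicate 2 (x axis) and CD37 -/- replicate 2 minus replicate 1 (y axis). Purple points are the 39 members, green triangles the 13 monocyte and macrophage markers and grey points the 11774 tested genes, of which 123 lie outside the axes. To the upper right of the 2 zero lines lie 25 members and 12 of the markers.

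**Figure D4:**
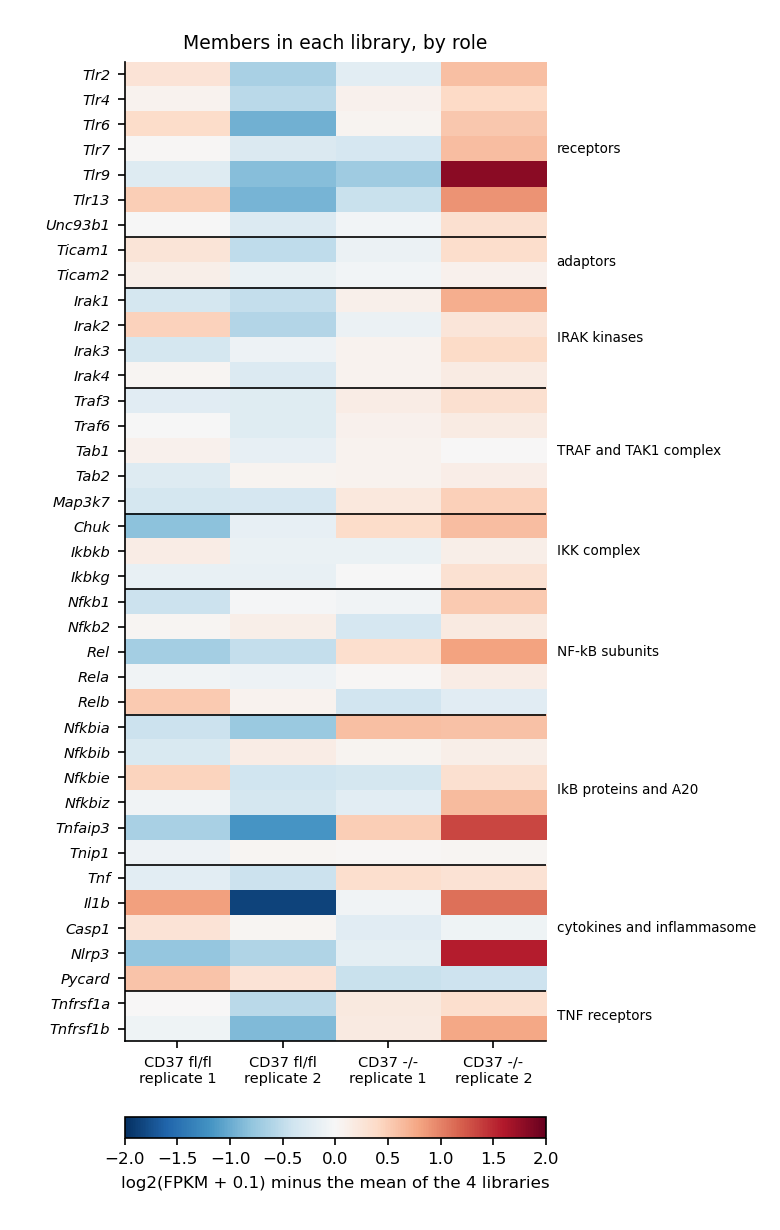
Each member in each library, as log2(FPKM + 0.1) minus the mean of the 4 libraries, with genes grouped by role. The receptor rows are blue in CD37 fl/fl replicate 2 and red in CD37 -/- replicate 2, whereas *Nfkbia* and *Tnf* are blue in both CD37 fl/fl and red in both CD37 -/- libraries, and *Pycard* shows the reverse.

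Other genes of the pathway and known NF-κB targets were taken from 2 further lists. Of 66 other pathway genes, 51 were tested, and 7 were higher and 4 lower at an unadjusted p under 0.05. Of 25 target genes, 18 were tested, and 2 were higher and 0 lower. Together these were 13.0% higher and 5.80% lower, near the shares of all tested genes, and their median log2 fold change was 0.28. None of them passed an adjusted p of 0.05 in limma.

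Signaling genes just beside the members were among the higher ones. *Tank*, a TRAF-binding adaptor, had 0.194 and 0.266 FPKM in CD37 fl/fl and 0.723 and 0.973 FPKM in CD37 -/- replicates 1 and 2, with a log2 fold change of 1.52 and an unadjusted p of 0.0033. *Tbk1*, the kinase that Tank binds, had a log2 fold change of 0.98, and *Tollip*, a negative regulator of IRAK signaling, also of 0.98. *Bcl10* and *Malt1*, which act together upstream of IKK, had log2 fold changes of 1.03 and 0.97, while *Card9*, the myeloid protein that engages them, was lower. *Card9* had 26.4 and 20.8 FPKM in CD37 fl/fl and 14.2 and 6.83 FPKM in CD37 -/- replicates 1 and 2, with a log2 fold change of -1.24 (standard error 0.40, unadjusted p of 0.025). *Nfkbid*, a nuclear IκB protein, had 4.97 and 5.00 FPKM in CD37 fl/fl and 9.76 and 8.60 FPKM in CD37 -/- replicates 1 and 2, with a log2 fold change of 0.87.

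The 2 interferon regulatory factors that were called went in opposite directions. *Irf7*, which acts downstream of endosomal Toll-like receptors, had 9.92 and 4.16 FPKM in CD37 fl/fl and 12.5 and 31.7 FPKM in CD37 -/- replicates 1 and 2, with a log2 fold change of 1.62 (standard error 0.60, unadjusted p of 0.041), and it followed the order of libraries described for the receptors. *Irf3* was lower, with a log2 fold change of -0.72, as were the inhibitory receptor *Sigirr* (-0.77) and the deubiquitinase *Otulin* (-0.76). Of the targets, *Icam1*, an adhesion molecule, had 0.463 and 0.652 FPKM in CD37 fl/fl and 1.73 and 2.35 FPKM in CD37 -/- replicates 1 and 2, with a log2 fold change of 1.70 (standard error 0.30, unadjusted p of 0.0020). *Plau*, the urokinase gene, had a log2 fold change of 0.97. The chemokine *Cxcl2* had 18.6 and 10.1 FPKM in CD37 fl/fl and 20.99 and 50.0 FPKM in CD37 -/- replicates 1 and 2 and was not called, with an unadjusted p of 0.061. *Tlr1*, another partner of *Tlr2*, had 2.67 and 0.890 FPKM in CD37 fl/fl and 1.96 and 3.54 FPKM in CD37 -/- replicates 1 and 2, the order of the receptors on the list. *Cxcl2* and *Tlr1* were named after their values were seen.

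The calls of *Tank* and *Icam1* were kept with any 1 library left out, and each of the other 11 was lost without at least 1 library, with its direction held. Without CD37 -/- replicate 2 the log2 fold changes that lost their call were 0.83 for *Tollip*, 0.83 for *Tbk1*, 0.75 for *Bcl10*, 0.77 for *Malt1*, 0.95 for *Irf7*, 0.65 for *Plau*, -0.72 for *Card9*, -0.75 for *Sigirr*, -0.54 for *Otulin* and -0.54 for *Irf3*. Those lost without CD37 -/- replicate 1 were 0.77 for *Nfkbid*, -0.79 for *Sigirr* and -0.99 for *Otulin*. Without CD37 fl/fl replicate 1 they were 0.84 for *Tbk1*, 0.76 for *Bcl10*, 0.90 for *Malt1*, -1.07 for *Card9*, -0.66 for *Otulin* and -0.71 for *Irf3*, and without CD37 fl/fl replicate 2 they were 1.00 for *Irf7*, 0.76 for *Plau*, -1.41 for *Card9*, -0.62 for *Sigirr*, -0.87 for *Otulin* and -0.74 for *Irf3*. Scaling ended the calls of *Irf7* and *Plau* (quantile normalization and upper quartile), of *Malt1* (quantile normalization) and of *Sigirr*, *Otulin* and *Irf3* (TPM). The replicate number as a block ended those of *Irf7* (unadjusted p of 0.072) and *Plau* (0.052, and 0.054 in limma-voom with the block).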

How the data were processed

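RNA of 2 CD37 fl/fl and 2 CD37 -/- samples of sorted LSCs was sequenced from poly(A) libraries that keep the strand. The authors deposited FPKM values, 1 column per sample, without a log. The submitters' processing notes name fastp 0.20.1, STAR 2.7.7a, featureCounts 2.0.0, edgeR and the build mm39, and the study's methods name limma. Whether introns and strand were used in counting is not given in the sources used here. Per gene, 98.9% of values above 0 in each library became whole reads within 0.05 (10% by chance) when multiplied by the gene span of GENCODE M21 (GRCm38), to which 17045 of 17104 identifiers matched, and between 10.7% and 11.1% with exon length. Gene positions are of that annotation. The reads of *Casp1* were not whole, so its level per exon length was not used. The chi-square of recovered reads between replicates, divided by its degrees of freedom, was 98.6 for CD37 fl/fl and 67.2 for CD37 -/-, so no library was a copy of another.

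The 11774 genes whose mean FPKM reached 0.1 were tested on log2(FPKM + 0.1), which understates changes of low genes. limma 3.58.1 was used (lmFit, then eBayes with trend) in R 4.3.3 with statmod 1.5.0, with Benjamini-Hochberg adjustment over all these genes. The code was tested on simulated data. An exact permutation test of 2 against 2 samples cannot go below 0.333 and was not used. Figures were drawn with matplotlib 3.10.9, and tables were handled in Python 3.11.15 with numpy 2.4.6, pandas 2.3.3 and scipy 1.17.1. Called genes are those at an unadjusted p under 0.05. Values per library are given for called members, members that did not overlap and differed by 1 or more on the log2 scale, and the most abundant member of each role, of other pathway and target genes for the 10 largest changes, and for others where the text turns on them. The members and lists were chosen with earlier results of these data known. Lists of progenitor, neutrophil, monocyte and macrophage, dendritic and erythroid markers checked the cell type. Alternatives were a pseudocount and a minimum mean of 1, all genes above 0, quantile normalization, TPM, the upper quartile, eBayes without trend or robust, the replicate number as a block, each sample left out, and limma-voom on the recovered reads with and without the block. Whether replicate numbers pair samples is not stated. The correlation over genes of replicate 1 minus 2 between the genotypes was -0.0586. This cannot exclude a pairing, and samples were taken as not paired in the main test.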

Additional observations from a re-analysis of the deposited data

How the results depend on the processing

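Of the 8 calls among the members, 3 to 5 were kept with 1 library left out, when the lone sample of a group is assumed to vary like the other group. Directions of the 8 held under all settings run, and the cause of lost or gained calls was not tested. With the replicate block, members were 6 higher and 1 lower and 0 genes passed an adjusted p of 0.05. In limma-voom on reads with the replicate block, 549 genes passed it, 2 members among them, while 0 passed in limma-voom without the block, where 3270 genes had an unadjusted p under 0.05. Whether samples with the same replicate number belong together is not stated, and the correlation of -0.0586 cannot exclude it. Members higher and lower were 4 and 2 after quantile normalization (median log2 fold change 0.083), where 9.13% and 10.1% of all tested genes were. They were 3 and 3 with the upper quartile (median 0.12), against 9.53% and 12.2% of all tested genes. As TPM they were 10 and 0 (median 0.76), against 28.8% and 2.07%. With 1 library left out the median of the members ran from 0.14 to 0.61. Other pathway and target genes were 18 higher and 1 lower as TPM, 15 higher in limma-voom with or without the block, and 5 to 12 higher and 0 to 2 lower with 1 library left out. As TPM, 28.8% of all tested genes were higher and 2.07% lower. In limma-voom 19.2% of all tested genes were higher without the block and 19.5% with it, against 16.5% in the main test. The larger counts of other pathway and target genes in these settings thus came with larger shares of all genes. Such counts alone do not set these genes apart. Genes with few reads, such as *Tlr9*, were limited by depth.

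Members without a call changed sign as follows. Quantile normalization gave log2 fold changes of -0.10 for *Tlr7*, -0.31 for *Ticam2*, -0.27 for *Irak2*, -0.074 for *Irak4*, -0.013 for *Traf6*, -0.23 for *Tab1*, -0.11 for *Tab2*, -0.076 for *Ikbkg*, -0.031 for *Nfkbib* and -0.25 for *Tnip1*. The upper quartile gave -0.015 for *Ticam1*, -0.15 for *Ticam2*, -0.11 for *Irak2*, -0.018 for *Irak4*, -0.011 for *Traf6*, -0.18 for *Tab1*, -0.065 for *Tab2*, -0.083 for *Rela*, -0.10 for *Nfkbib* and -0.20 for *Tnip1*. TPM gave 0.35 for *Ikbkb*, 0.22 for *Nfkb2*, 0.33 for *Nfkbie* and 0.052 for *Casp1*, and limma-voom 0.0033 for *Nfkbie*. With 1 library left out, the range was -0.082 to 0.84 for *Tlr2*, -0.071 to 1.25 for *Tlr6*, -0.20 to 0.75 for *Tlr7*, -0.16 to 2.36 for *Tlr9*, -0.26 to 1.16 for *Tlr13*, -0.14 to 0.63 for *Ticam1*, -0.097 to 0.15 for *Ticam2*, -0.40 to 0.65 for *Irak2*, -0.043 to 0.20 for *Tab1*, -0.16 to 0.12 for *Ikbkb*, -0.41 to 0.10 for *Nfkb2*, -0.062 to 0.39 for *Nfkbib*, -0.46 to 0.39 for *Nfkbie*, -0.0090 to 0.12 for *Tnip1* and -0.31 to 2.37 for *Il1b*.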
